A study of Mus musculus with 32 samples.

Results

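Genes of cholesterol synthesis, lipid uptake and lipid storage were followed in macrophages and related myeloid cells taken from mouse tumours. The 37 genes were taken by name from a fixed list and divided by role into 10 of sterol synthesis, 8 of the liver X receptors (LXR) and their targets, 13 of fatty acid synthesis and handling, and 6 of lipid uptake, lysosomal release and cholesterol storage. A gene was measured by its brightest probe set that is annotated to that gene alone. On this basis 32 of the 37 were measured on one chip (HT_MG-430_PM, 17097 genes in all) and 33 on the other (Mouse Gene 2.0 ST, 22180 genes in all). Nr1h2, Scd2 and Soat1 were not analysed here on either chip, nor were Abca1 and Srebf1 on the first and Idi1 on the second.

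The series has 32 arrays in 12 groups and was made in 3 experiments. In the tumour models, CD11b+ cells were enriched with magnetic beads from neuroblastomas that arise in the peritoneum of Th-MYCN mice, in which the tyrosine hydroxylase promoter drives MYCN (3 arrays), and from tumours of EG7, a transplanted lymphoma line of T cell origin, in wild-type (WT) mice (3 arrays). In the host experiment the same kind of cells came from EG7 tumours in WT or Myd88-/- recipients (5 arrays each). The Myd88 protein passes on signals of interleukin-1 receptors and most Toll-like receptors. In the last experiment EG7 tumours were sorted by flow cytometry into population A (CD11b+, Ly6G-, Ly6C+, MHCII-) and population C (CD11b+, Ly6C-, MHCII+). Of each population 2 arrays were made per host genotype: WT, TNFR1-/- (without a receptor of tumour necrosis factor), Myd88flox/flox; Tie2-Cre (Myd88 cKO below), and TNFR1-/-; Myd88flox/flox; Tie2-Cre (double KO below). Tie2-Cre is active in endothelium as well as in blood cells, whereas the Myd88-/- and TNFR1-/- alleles act in every host cell, and the EG7 cells carry none of these alleles. The design also names a glioma model, which was not analysed here. The labels give no age and do not say whether replicate arrays are separate animals, so the p-values rest on a spread that may be technical.

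Cells make cholesterol from acetyl-CoA through the mevalonate pathway, whose genes are switched on by SREBP2 when sterol is scarce and held back by Insig1 when it is plentiful. When sterol accumulates, LXR switches on genes for its export, such as Abca1, Abcg1 and Apoe. Macrophages also take up lipoproteins and dying cells, free the cholesterol in lysosomes through Lipa, Npc1 and Npc2, and store neutral lipid in droplets coated by Plin2. Fatty acids are made by Acly, Acaca and Fasn under SREBP1, desaturated by Scd1 and carried by the Fabp proteins.

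Promoters are shown first for 4 members whose values recur below: a pair from sterol synthesis, and a pair of known LXR targets that were both called higher with Myd88 loss in population A. Each window is the 250 bases before a RefSeq gene start in mouse assembly GRCm38.p6, printed 5′ to 3′ on the gene's strand. RefSeq windows were matched for 25 of the 37 members, 34 windows in all. In Hmgcs1 (chr13:119690101-119690350, plus strand), the enzyme before the rate-limiting step, and Insig1 (chr5:28071162-28071411, plus strand), capitals mark the SREBP-type motif TCACNCCAC and the NF-Y box CCAAT, searched on both strands.
Hmgcs1: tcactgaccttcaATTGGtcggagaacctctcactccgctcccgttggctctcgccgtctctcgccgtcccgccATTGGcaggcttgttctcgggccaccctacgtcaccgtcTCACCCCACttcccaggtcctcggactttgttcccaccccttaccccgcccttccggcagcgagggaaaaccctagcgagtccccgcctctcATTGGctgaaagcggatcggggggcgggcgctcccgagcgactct
Insig1: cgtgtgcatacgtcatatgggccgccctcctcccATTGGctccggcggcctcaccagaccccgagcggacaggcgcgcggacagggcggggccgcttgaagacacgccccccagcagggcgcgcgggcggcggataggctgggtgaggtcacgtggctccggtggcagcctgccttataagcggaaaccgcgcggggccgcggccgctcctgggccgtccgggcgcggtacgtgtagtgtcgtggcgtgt

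Hmgcs1 held 1 TCACNCCAC, which began 137 bases before the start, and 3 NF-Y boxes, while Insig1 held 1 NF-Y box and no TCACNCCAC. Over all 32851 RefSeq windows of this length TCACNCCAC was in 1.05% and CCAAT in 33.8%, against 1 and 19 of the 34 members' windows. The E-box CACGTG was in 6.02% of all windows and 3 of the members', one of them Insig1, and a perfect LXR-type direct repeat, AGGTCA followed by AGGTCA after 4 other bases, in 0.0152% and none of the members'. Imperfect repeats of this kind, the form of many LXR elements, were not searched for, so the count says nothing of them.

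Abca1 (chr4:53159896-53160145, minus strand) exports cholesterol, and Fasn (chr11:120824548-120824797, minus strand) makes palmitate. Capitals mark the longest run of letters that their windows share.
Abca1: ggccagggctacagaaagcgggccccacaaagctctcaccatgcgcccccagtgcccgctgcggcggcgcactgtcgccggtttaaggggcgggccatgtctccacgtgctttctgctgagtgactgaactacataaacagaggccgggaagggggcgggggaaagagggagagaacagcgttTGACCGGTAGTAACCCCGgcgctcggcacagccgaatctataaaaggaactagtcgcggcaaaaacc
Fasn: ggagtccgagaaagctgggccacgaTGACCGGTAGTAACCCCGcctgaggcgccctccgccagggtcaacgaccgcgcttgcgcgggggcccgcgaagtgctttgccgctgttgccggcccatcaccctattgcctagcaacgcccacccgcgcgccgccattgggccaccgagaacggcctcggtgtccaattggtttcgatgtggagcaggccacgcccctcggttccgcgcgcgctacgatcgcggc

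The shared run, TGACCGGTAGTAACCCCG, is 18 bases long and begins 67 bases before the Abca1 start and 225 bases before the Fasn start. As an exact match it was found in 2 of the 32851 windows, those of Abca1 and Fasn. Variants of the run were not counted, and a Srebf1 window (chr11:60210472-60210721, minus strand) holds close ones. The count therefore does not show that the run is special to Abca1 and Fasn. Whether the run is an imperfect LXR-type repeat was not tested. The search for the exact run was added after the windows were seen, and a letter match is no evidence of binding.

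All values below are log2 signals, so a difference of 1 is a factor of 2, and values after ± are standard errors. A gene is said to rise or fall when its adjusted p in limma, over all genes tested, was under 0.05. The libraries matched their labels for Myd88: it read 8.11 to 8.57 in WT hosts against 7.47 to 7.83 in Myd88-/- hosts. In sorted arrays without and with the deletion it read 9.22 to 10.05 against 7.49 to 8.76. The double KO arrays read 8.76 and 7.97 in C and 7.78 and 8.32 in A, against 7.49 to 7.84 in Myd88 cKO arrays. The Myd88 loss comparisons average over these unequal levels. Tnfrsf1a read 7.51 to 8.2 in the 8 TNFR1-deficient arrays and 7.81 to 8.55 in the other sorted arrays, so it checks nothing unless its probes lie in the deleted part, which no source used here states. In sorted cells Ly6c2 and MHC class II genes followed the gate, with Ly6c2 at 11.31 to 12.93 in A and 7.88 to 9.99 in C. Arrays correlated least with their own group in the A_WT pair. Values without an array of that pair are given in some comparisons. A against C within WT hosts and Myd88 cKO against WT in A rest on that pair and were not refitted without its arrays. In RNA from many cells, fewer cells of a type and less RNA per cell cannot be told apart.

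In the tumour models, cells of neuroblastomas had far more Apoc1 and Scd1 RNA than cells of EG7 tumours and more Mylip, while Cyp51 and Apoc2 were lower. Of the 32 members tested, 3 rose and 2 fell, against a background of 9.49% of all genes higher and 5.22% lower. The members were thus called about as often as all genes. The median difference was -0.04 over the members and -0.01 over all genes. Groups that did not overlap were found for 6 members higher and 4 lower, against 19.1% and 17% of all genes, so no more often than the background.

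Among LXR targets, Apoc1, an apolipoprotein encoded beside Apoe, read 8.44, 8.2 and 7.26 in the neuroblastoma arrays against 3.6, 4.11 and 3.2 in those of EG7. The groups lay far apart, Apoc1 differing by 4.33 ± 0.37 (n = 3 each, limma adjusted p = 0.00106). Apoc2, the cofactor of lipoprotein lipase, is encoded in the same cluster and read 5.76, 6.98 and 8.12 against 9.42, 9.35 and 8.65. It was thus lower in all 3 neuroblastoma arrays with the largest standard error of the called members, at -2.19 ± 0.57 (limma adjusted p = 0.0496). That call was lost in 5 of 6 fits that each left out 1 array, and in 4 of 7 other settings. Mylip, the ubiquitin ligase that LXR induces to degrade the LDL receptor, read 10.47, 10.18 and 10.22 against 8.54, 8.89 and 8.57, a rise of 1.62 ± 0.17 (limma adjusted p = 0.00222). Abcg1 and Apoe also lay higher in every neuroblastoma array but did not pass, at 0.97 ± 0.28 (limma adjusted p = 0.0618) and 0.48 ± 0.14 (limma adjusted p = 0.0659). Of the 9 other LXR pathway genes tested, 2 rose and none fell: Pltp, the phospholipid transfer protein, by 1.54 ± 0.19, and Cd5l, a secreted macrophage protein, by 3.49 ± 0.59.

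In fatty acid handling, Scd1, the stearoyl-CoA desaturase, read 11.24, 9.62 and 9.85 in neuroblastoma against 5.39, 6.49 and 5.55 in EG7. This was the largest difference among the members, 4.43 ± 0.49 (n = 3 each, limma adjusted p = 0.00271). The other 10 measured genes of this role did not pass; Pparg, the lipid-sensing nuclear receptor, was at 0.59 ± 0.22 and Fabp5 at -0.41 ± 0.14, both without overlap of the groups. Of 27 other fatty acid and droplet genes tested, 3 rose and 3 fell, including Pdk4, which spares glucose for fatty acid use, at 3.44 ± 0.66, the desaturase Fads2 at 1.27 ± 0.22 and the droplet protein Plin3 at -0.9 ± 0.17. The fourth by adjusted p was Ppargc1b, a coactivator of mitochondrial genes, at -1.25 ± 0.20.

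Sterol synthesis leaned the other way. Cyp51, the lanosterol demethylase, read 6.26, 6.23 and 6.6 in neuroblastoma against 7.2, 8 and 7.47 in EG7, a fall of 1.19 on the log2 scale with a standard error of 0.24 (limma adjusted p = 0.0212). The call was lost without neuroblastoma array 1, EG7 array 2 or EG7 array 3, with adjusted p up to 0.0662. It was the one called member of 10, and 8 of the 10 had a negative difference. Dhcr7, which makes cholesterol from its last precursor, was lower in every neuroblastoma array without passing, at -0.48 ± 0.18. Of 14 other sterol pathway genes tested, 4 fell and none rose. They were Msmo1 (-1.05 ± 0.15) and Sc5d (-1.14 ± 0.17), which act after Cyp51, and the mevalonate enzymes Mvd (-1.34 ± 0.25) and Mvk (-0.67 ± 0.16). Hmgcs1 read only 3.2 to 3.81 over the 6 arrays, close to the intensity filter, so its level says little on this chip.

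None of the 5 measured uptake and storage genes passed. Trem2, a lipid-sensing receptor, read 9.83, 9.36 and 10.45 in neuroblastoma against 10.46, 10.63 and 10.19 in EG7 (-0.55 ± 0.29), and the lysosomal cholesterol exporter Npc1 read 9.86, 8.77 and 9.2 against 9.93, 9.8 and 9.5 (-0.47 ± 0.29). The groups overlapped for both. Of 15 other uptake and lysosome genes, the glycoprotein Gpnmb fell by 1.68 on the log2 scale with a standard error of 0.17.

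**Figure D1:**
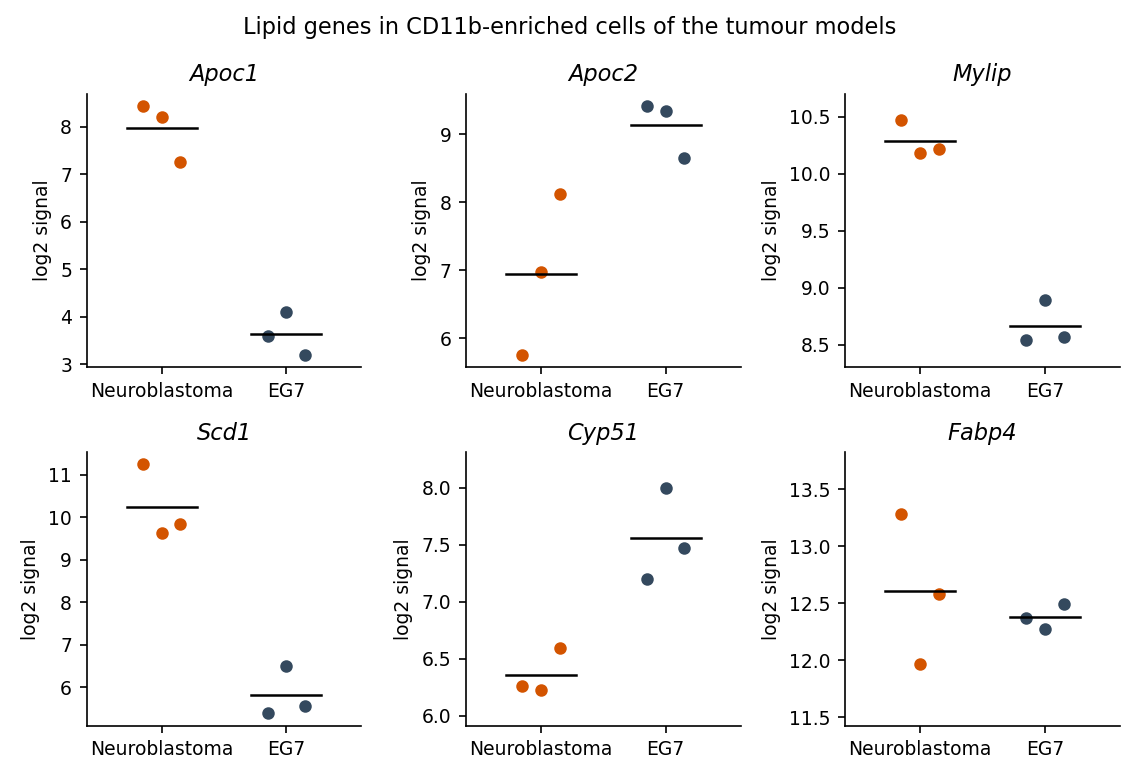
Log2 signal of 6 lipid genes (y axes, each panel on its own scale) in each of 3 neuroblastoma and 3 EG7 arrays (x axis); points are arrays and bars are group means. Apoc1, Mylip and Scd1 are higher and Apoc2 and Cyp51 lower in all 3 neuroblastoma arrays, and Fabp4 overlaps.

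Markers of other cells moved with this comparison. Sympathetic neuron markers were higher (6 of 7 called, median 5.95) and all 7 T lymphocyte markers lower. The list of T cell markers, here and below, was chosen for both T lymphocytes and the EG7 line. The adipocyte hormone Adipoq read 10.83, 3.71 and 8.16 in the neuroblastoma arrays and 2.98 to 3.08 in EG7, and the adipocyte-rich enzyme Car3 read 10.81 to 11.08 against 4.28 to 5.04. The mean log2 level of the 5 adipocyte markers ran from 5.15 to 8.04 in neuroblastoma and from 3.73 to 3.9 in EG7. Lep was at 3.04 to 3.31 in all 6 arrays. Of the 4 adipocyte markers tested, 1 was called. Neuroblastoma array 2 had Car3 at 11.08, but its Plin4 (3.57) and Retn (4.27) lay below all EG7 arrays. Fabp4 followed the order of Adipoq, at 13.28, 11.97 and 12.58, against 12.27 to 12.49 in EG7. Scd1, at 11.24, 9.62 and 9.85, had the same order, against 5.39 to 6.49 in EG7. Kidney tubule markers were also higher (2 of 5 called), with Umod at 8.61, 10.66 and 10.15 against 2.9 to 3.28, as were endothelial markers (4 of 6 called, median 1.69) and fibroblast markers (2 of 5 called, differences up to 4.24), while the adrenal markers Star and Cyp11a1 differed by 0.05 and -0.02. Of the gate markers, 2 of 5 were lower, both MHC class II genes (H2-Eb1, -4.56 ± 0.62, and H2-Aa, -2.63 ± 0.48). The class II gene H2-Ab1 was not called and overlapped, at 11.48, 13.23 and 12.56 in neuroblastoma against 12.13, 12.46 and 12.17 in EG7. Of the macrophage markers, 1 of 8 was lower (Adgre1, -0.92 ± 0.17) and Cd68 was at -0.23 ± 0.15. Without neuroblastoma array 1, which had the most Adipoq, 4 members were called, all higher, and without EG7 array 2 or array 3 there were 3, all higher. The part of these other cells in the differences between the models was not tested.

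In EG7 tumours of Myd88-/- against WT hosts, no member passed the test, and no difference exceeded 0.37. Of the 30 members tested, 0 were called by limma, against 1.44% of all genes (0.26% higher and 1.18% lower). At an unadjusted p under 0.05 there were 11 members, 8 higher and 3 lower, against 12.5% of all genes. The median was 0.03 over the members and 0.01 over all genes. No alternative setting gave a call. The uptake and lysosome genes had the most even direction: all 5 measured were higher in Myd88-/- hosts, by 0.11 to 0.37.

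Msr1, a scavenger receptor for modified lipoproteins, read 10.06, 9.73, 9.81, 10.01 and 10.05 in WT hosts and 10.16, 10.07, 10.35, 10.38 and 10.22 in Myd88-/- hosts. The groups did not overlap, and Msr1 differed by 0.3 ± 0.09 (n = 5 each, limma adjusted p = 0.168). Trem2 read 9.79, 9.34, 9.39, 9.55 and 9.59 against 10, 9.63, 9.79, 10.21 and 9.89, with overlap (0.37 ± 0.12, limma adjusted p = 0.179). Groups not overlapping were found for 2 members higher and 2 lower, against 1.35% and 1.68% of all genes.

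Sterol synthesis genes went both ways. Fdps, which makes farnesyl pyrophosphate, read 7.2, 7.21, 7.42, 7.13 and 7.3 in WT hosts against 6.92, 6.93, 7.07, 6.77 and 7.04 in Myd88-/- hosts, lower without overlap (-0.31 ± 0.09, n = 5 each, limma adjusted p = 0.118). Dhcr7 read 6.75, 6.34, 6.36, 6.54 and 6.64 against 6.98, 6.62, 6.91, 6.91 and 7, the other direction with overlap (0.36 ± 0.10, limma adjusted p = 0.136). Apoc2 came nearest to the threshold of all members: it read 8.15, 8.19, 7.99, 8.15 and 7.92 in WT hosts against 7.86, 7.65, 7.86, 7.74 and 7.48 in Myd88-/- hosts (-0.36 ± 0.09, limma adjusted p = 0.0928).

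In the remaining roles no member passed. The transporter Abcg1 read 9.68, 9.28, 9.06, 9.47 and 9.35 in WT hosts against 9.77, 9.35, 9.38, 9.93 and 9.78 in Myd88-/- hosts (0.27 ± 0.14). Lpl, which releases fatty acids from lipoproteins, read 11.89, 11.74, 11.82, 11.86 and 12.08 against 12.16, 11.97, 12.01, 12.3 and 12.22 (0.25 ± 0.09, limma adjusted p = 0.256). Fabp5, a fatty acid carrier, read 12.74, 12.73, 12.72, 12.63 and 12.68 against 12.87, 12.95, 12.77, 12.89 and 12.84, higher without overlap (0.16 ± 0.07, limma adjusted p = 0.353). Fasn read 5.37, 5.56, 5.57, 5.75 and 5.91 against 5.34, 5.41, 5.27, 5.5 and 5.36 (-0.26 ± 0.10, limma adjusted p = 0.307). Of the other pathway genes, 1 of 64 tested passed, the scavenger receptor Marco at -1.51 ± 0.30 (limma adjusted p = 0.0238). Hmgcs1 and Apoc1 were too dim to test. Of the gate markers all 5 had a negative difference, with Ly6c1 called at -0.82 ± 0.10, and 0 of 8 macrophage markers were called; their part in the differences was not tested.

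**Figure D2:**
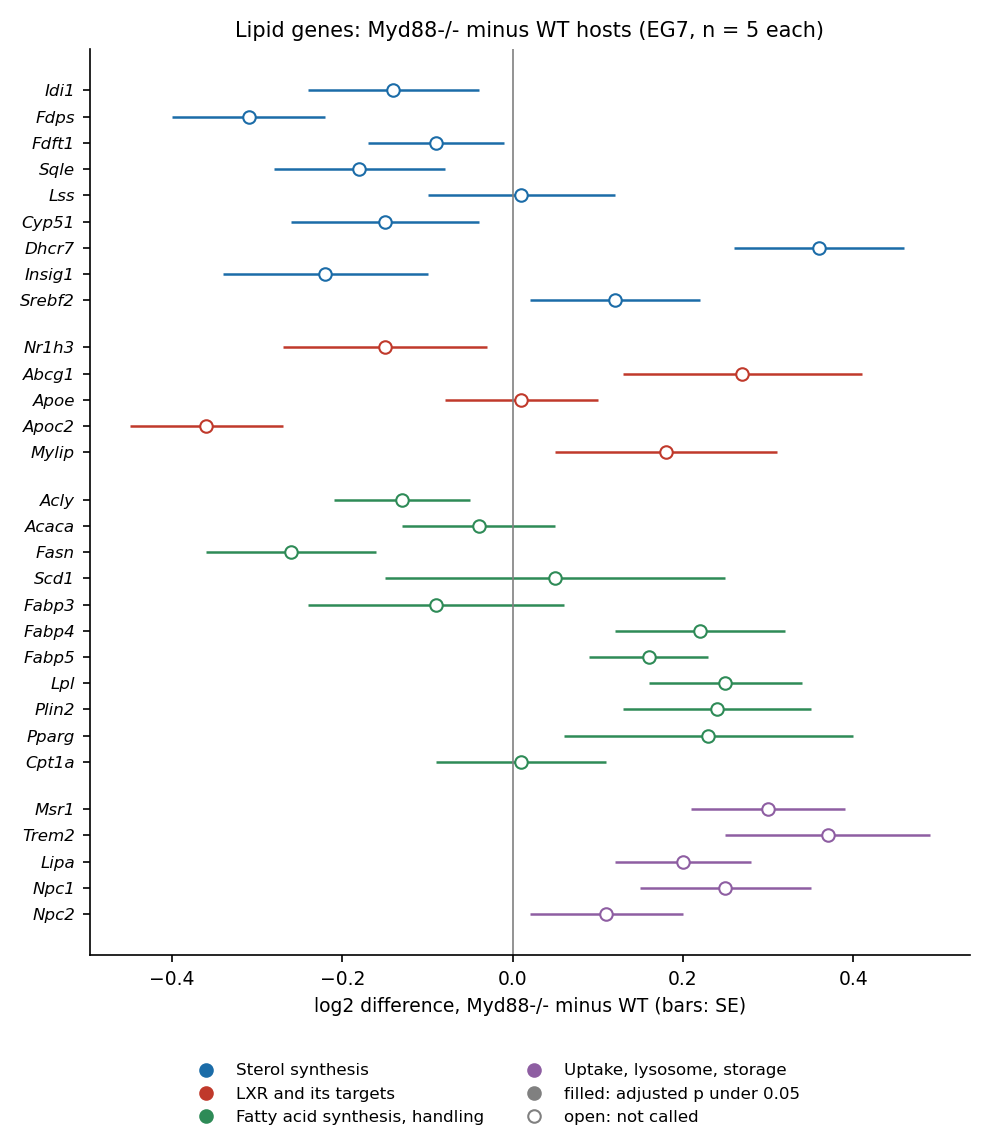
Log2 difference between Myd88-/- and WT hosts (x axis, bars are standard errors, n = 5 each) for the 30 members tested, coloured by role. All symbols are open because 0 members were called, and the differences lie between -0.36 and 0.37.

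Population A, the Ly6C+ MHCII- cells, had less RNA than population C for most member genes of lipid uptake and sterol export. The droplet coat gene Plin2 was lower too, as was part of sterol synthesis by a little. Over the 4 genotypes 20 of 32 members were lower in A and 0 higher, against a background of 21.3% of all genes lower and 11.1% higher. The median was -0.49 over the members and 0.01 over all genes. Srebf1, Srebf2, Acly, Acaca and Fasn, the regulators and enzymes of synthesis, were not called and lay between -0.17 and 0.16.

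All 5 measured uptake and lysosome genes fell. Trem2 ran from 6.65 to 9.33 in A (median 7.465) and from 8.83 to 9.98 in C (median 9.405), so that A minus C was -1.78 ± 0.14 (n = 8 each, limma adjusted p = 9e-07). The ranges met through 1 Myd88 cKO array of A, at 9.33. Lipa, the lysosomal acid lipase, was at -1.54 ± 0.16, from 7.34 to 10.29 (median 8.64) in A and 9.44 to 10.64 (median 10.09) in C. Msr1 was at -1.14 ± 0.15, from 8.48 to 10.45 (median 9.625) in A and 10.27 to 11.1 (median 10.585) in C. Npc1 was at -1.1 ± 0.12, from 7.4 to 8.88 (median 8.09) against 8.81 to 9.46 (median 9.14), and Npc2, its luminal partner, at -0.77 ± 0.09. Npc2 ran from 9.16 to 9.98 (median 9.49) in A and 10.08 to 10.57 (median 10.34) in C, without overlap.

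In fatty acid handling 6 of 11 fell. Fabp5, a fatty acid carrier of macrophages and skin, ran from 6.56 to 10.09 (median 8.15) in A and 9.72 to 10.71 (median 10.5) in C, the largest difference at -2.22 ± 0.18 (limma adjusted p = 1.52e-06). Lpl ran from 6.95 to 9.43 (median 8.05) in A and from 9.49 to 10.76 (median 9.91) in C, without overlap (-1.9 ± 0.20). Fabp4 was at -1.82 ± 0.22, from 4.3 to 7.99 (median 6.09) in A and 6.05 to 8.69 (median 8.04) in C. Pparg was at -1.36 ± 0.11, from 5.43 to 6.73 (median 6.095) against 6.67 to 8.07 (median 7.345). Plin2, the droplet coat, was at -0.98 ± 0.11, from 8.73 to 9.92 (median 9.3) against 10.26 to 10.51 (median 10.295). Cpt1a, which admits fatty acids to mitochondria, was at -0.47 ± 0.09, from 7.92 to 8.67 (median 8.45) against 8.59 to 9.05 (median 8.845). The carrier Fabp3 was at 0.09 ± 0.10, and Scd1 was too dim to test.

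Among the LXR genes 4 of 7 fell. Abca1 ran from 7.44 to 9.79 (median 8.22) in A and 9.19 to 10.72 (median 10.115) in C (-1.57 ± 0.14, n = 8 each, limma adjusted p = 2.19e-06). Apoe, which carries exported cholesterol, ran from 6.26 to 7.28 (median 6.685) against 7.36 to 7.99 (median 7.685), without overlap (-0.98 ± 0.09). The receptor Nr1h3, LXR alpha, was at -0.78 ± 0.11, from 5.1 to 6.31 (median 5.82) against 6.13 to 6.86 (median 6.665), and Abcg1 at -0.59 ± 0.13, from 7.75 to 8.75 (median 8.59) against 8.49 to 9.42 (median 9.075). Apoc1, Apoc2 and Mylip, LXR genes that differed between tumour models, lay between -0.21 and 0.05 here and were not called. Apoc1 read only 4.69 to 5.31 in A and 4.65 to 4.98 in C, close to the intensity filter. Its level therefore says little on this chip. Members whose 8 and 8 arrays did not overlap were Apoe, Lpl, Plin2 and Npc2, all lower in A, against 4.86% of all genes lower and 1.12% higher.

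Sterol synthesis fell by less: 5 of 9 were called, between -0.52 and -0.31. Fdft1, the squalene synthase, ran from 6.36 to 7.62 (median 6.875) in A and 6.87 to 7.88 (median 7.41) in C (-0.52 ± 0.12, limma adjusted p = 0.00388). The ranges of the other called genes overlapped as well. Insig1 was at -0.5 ± 0.16, from 7.7 to 9.16 (median 8.31) against 8.67 to 9.04 (median 8.79), so that A held both the lowest and the highest arrays. Dhcr7 was at -0.47 ± 0.08, from 5.18 to 6.14 (median 5.585) against 5.63 to 6.46 (median 6.13). Hmgcs1, whose promoter holds the SREBP-type motif, was at -0.45 ± 0.11, from 5.92 to 6.85 (median 6.455) against 6.39 to 7.21 (median 6.88). The squalene epoxidase Sqle was at -0.31 ± 0.10, from 5.47 to 6.4 (median 5.96) against 6.04 to 6.61 (median 6.305). The calls of Insig1 and Sqle were lost in 8 and 7 of 16 fits that each left out 1 array. Fdps, Lss, Cyp51 and Srebf2 were not called.

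The other pathway genes split. Pltp fell by 2.62 on the log2 scale with a standard error of 0.20, and Mertk, a receptor for dying cells, by 2.08 with a standard error of 0.14, while Lpcat3, which remodels phospholipids, rose by 1.29 ± 0.21 and the transporter Abca7 by 0.49 ± 0.11. Of 28 fatty acid and droplet genes tested, 12 fell and 4 rose. The fatty acid receptor Cd36 was at -1.91 ± 0.15, the desaturase Fads1 at -1.54 ± 0.10, Plin3 at -0.98 ± 0.11 and Hilpda at -0.82 ± 0.11. Dgat1, of the same list, ran higher in A, from 6.53 to 9.91 against 6.46 to 7.4 in C, with overlap. Of 15 uptake and lysosome genes 8 fell and 1 rose, with Asah1, the acid ceramidase, at -1.09 ± 0.10, the membrane protein Lamp1 at -0.84 ± 0.09, Gpnmb at -1.76 ± 0.19 and the protease Ctsd at -0.92 ± 0.13. Olr1, of this list, ran higher in A, from 7.5 to 9.13 against 7.09 to 8.68 in C, with overlap. Of 15 sterol pathway genes 6 fell and 2 rose; Nsdhl at -0.53 ± 0.08, Ebp at -0.45 ± 0.09, the protease Mbtps2 at -0.5 ± 0.11 and Msmo1 at -0.43 ± 0.09 had the smallest adjusted p.

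**Figure D3:**
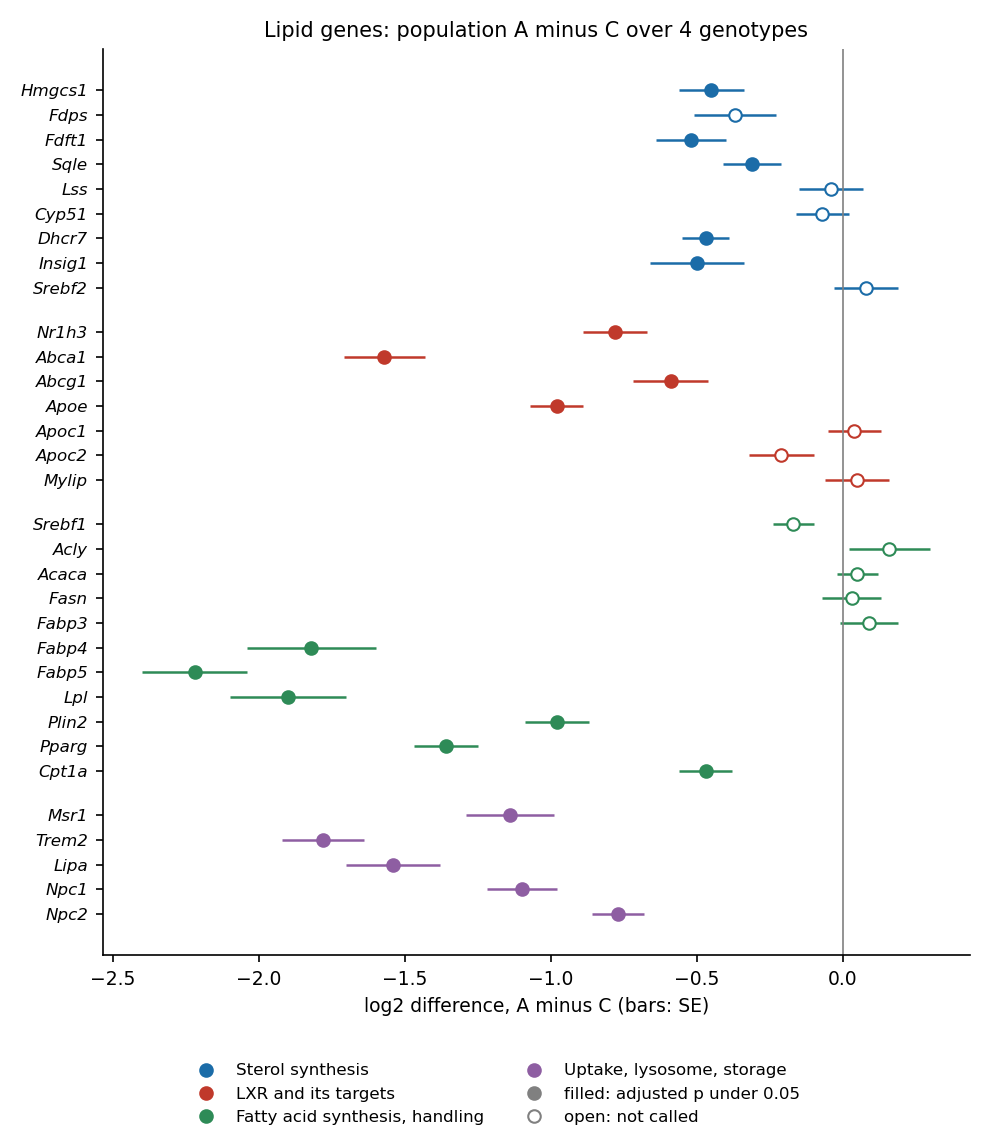
Log2 difference between populations A and C averaged over 4 genotypes (x axis, bars are standard errors, 8 arrays each) for the 32 members tested, coloured by role, with filled symbols for called members. All 20 filled symbols lie left of 0, from -2.22 for Fabp5 to -0.31 for Sqle.

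Within single genotypes the number of members lower in A was 16 in WT hosts, 14 in TNFR1-/-, 1 in Myd88 cKO (Apoe) and 11 in double KO hosts, against 9.92%, 10.1%, 0.938% and 3.72% of all genes. No member was called higher in any, against 3.53%, 2.48%, 1.03% and 1.74% of all genes. Fabp5 differed by -3.02 in WT, -2.88 in TNFR1-/-, -0.89 in Myd88 cKO and -2.08 in double KO hosts, and Lipa by -2.06, -2.13, -0.7 and -1.26. Whether the effect of Myd88 loss differed between the populations was tested directly: 0 of 32 members passed in limma, as did 0 of all 16524 genes. At an unadjusted p under 0.05 there were 9 members, all higher in A, against 9.27% of all genes, led by Abca1 (1.09 ± 0.27, limma adjusted p = 0.265) and Fabp5 (1.46 ± 0.37, limma adjusted p = 0.265).

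Markers moved with the populations as well. Of 8 macrophage markers 6 were lower in A, with Cd68 at -1.17 ± 0.15 and Csf1r at -0.78 ± 0.13. The other 2, Itgam and Adgre1, had a positive difference, up to 0.43, and were not called. The mean log2 level of the list ran from 9.29 to 10.37 in A and from 10.16 to 10.79 in C. Of 8 neutrophil markers 5 were higher and 7 had a positive difference. The granulocyte and monocyte gene Retnlg read 9.5 to 11.56 in A and 4.35 to 5.81 in C, and S100a8 read 4.24 to 5.71 in A and 4.3 to 5.16 in C. Also higher in A were 4 of 6 fibroblast markers (Dcn, 2.12 ± 0.15), 4 of 7 T cell markers (differences up to 0.67) and 3 of 5 endothelial markers (Cdh5, 0.9 ± 0.09). Their part in the lipid gene differences was not tested.

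Loss of Myd88 in population A raised the fatty acid carriers Fabp4 and Fabp5, Lipa, Trem2 and Abca1. The comparison sets 4 arrays with the Myd88 deletion (Myd88 cKO and double KO) against 4 without (WT and TNFR1-/-). Of 32 members 7 rose and 0 fell, against a background of 4.19% of all genes higher and 0.478% lower. The median was 0.28 over the members and 0.01 over all genes. In a fit of the 8 population A arrays alone 1 call remained, Fabp4, and 37 genes were called in all, against 772.

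In fatty acid handling 3 of 11 rose. Fabp4 read 5.15 and 5.88 in WT, 4.91 and 4.3 in TNFR1-/-, 7.73 and 7.99 in Myd88 cKO and 6.3 and 6.44 in double KO hosts. The intensity filter lay at 5.04 to 5.14 in the 4 arrays without the deletion, so both TNFR1-/- values were below it. All 4 arrays with the deletion were above all 4 without it, and Fabp4 differed by 2.06 ± 0.31 (n = 4 each, limma adjusted p = 0.00387). Fabp5 read 7.33 and 7.61, 7.91 and 6.56, 9.32 and 10.09, and 8.41 and 8.39 in the same order, again without overlap (1.7 ± 0.26, limma adjusted p = 0.00397). Fasn read 7.02 and 6.42, 6.3 and 6.11, 6.58 and 6.95, and 7.43 and 7.66 (0.69 ± 0.14, limma adjusted p = 0.0166). Unlike Fabp4 and Fabp5 it was highest in double KO hosts, and its groups overlapped. The carrier Fabp3 read 9.03 and 9.66, 9.48 and 9.27, 8.98 and 9.19, and 9.01 and 9.2, the lowest difference of any member here (-0.27 ± 0.15, not called). Lpl, Pparg and Cpt1a were at 0.8 ± 0.28, 0.42 ± 0.16 and 0.32 ± 0.12 and were not called.

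In uptake and lysosomal release 2 of 5 rose. Lipa read 8.79 and 7.69 in WT, 7.63 and 7.34 in TNFR1-/-, 9.4 and 10.29 in Myd88 cKO and 8.58 and 8.7 in double KO hosts (1.38 ± 0.22, n = 4 each, limma adjusted p = 0.00501). Trem2 read 7.48 and 6.9, 7.36 and 6.65, 8.49 and 9.33, and 7.45 and 7.57 in that order (1.11 ± 0.19, limma adjusted p = 0.0072). For both the Myd88 cKO pair stood highest and 1 WT array reached the double KO level. Npc1 was at 0.57 ± 0.18 (limma adjusted p = 0.0779).

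The cholesterol genes were represented by Abca1, 1 of 7 LXR genes called, and Dhcr7, 1 of 9 in sterol synthesis. Abca1 read 8.34 and 7.44 in WT, 7.76 and 7.86 in TNFR1-/-, 9.28 and 9.79 in Myd88 cKO and 8.41 and 8.1 in double KO hosts (1.05 ± 0.19, n = 4 each, limma adjusted p = 0.0096). Only the Myd88 cKO pair stood clear of the rest. Dhcr7 read 5.18 and 5.54, 5.26 and 5.49, 5.86 and 6.14, and 5.63 and 5.74, without overlap (0.48 ± 0.12, limma adjusted p = 0.039). Groups not overlapping, all higher, were found for Dhcr7, Srebf1, Fabp4 and Fabp5, against 4.44% of all genes. Abca1 and Fasn were chosen for the promoter windows because both were called here, so their shared rise says nothing of the 18-base run. Abca1 peaked in Myd88 cKO and Fasn in double KO hosts.

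Leaving out WT array 1 gave 13 calls, 12 higher and 1 lower, and leaving out Myd88 cKO array 2 gave 4, without Abca1, Fasn and Dhcr7. Fabp4, Fabp5, Lipa and Trem2 kept their calls in all 8 such fits. Against WT alone, the Myd88 cKO pair had 5 of 32 members called, all higher: Abca1 (1.65 ± 0.27), Fabp4 (2.35 ± 0.44), Fabp5 (2.24 ± 0.37), Trem2 (1.72 ± 0.28) and Lipa (1.6 ± 0.32), against 2.47% of all genes higher.

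Other lipid genes rose too. Cd36 rose by 1.67 ± 0.22, Fads1 by 0.78 ± 0.15 and Acsl4, an acyl-CoA synthetase, by 0.81 ± 0.21, 3 of 28 tested. Of 15 uptake and lysosome genes 5 rose, led by Gpnmb (2.11 ± 0.27), Ctsd (0.99 ± 0.18), Asah1 (0.71 ± 0.14) and the sphingomyelinase Smpd1 (0.83 ± 0.22). Mertk was 1 of 8 LXR pathway genes (1.14 ± 0.20), and 0 of 15 other sterol pathway genes passed.

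Markers of several lists moved with Myd88 loss in A, but 0 of 5 gate markers were called. Cd68 read 11.32 and 10.78 in WT, 10.63 and 9.57 in TNFR1-/-, 11.44 and 11.9 in Myd88 cKO and 10.48 and 11.09 in double KO hosts, and H2-Aa, which the gate selects against, read 10.03 and 9.98, 10.31 and 8.77, 10.62 and 11.61, and 9.5 and 10.63. Neither Cd68 nor H2-Aa was called, and for both the arrays with and without the deletion overlapped. The Myd88 cKO array with the most H2-Aa was also the one with the most Fabp5, Trem2, Lipa and Abca1. The macrophage list had 1 of 8 called (Mertk), with 6 positive and 2 negative differences. Its mean log2 level was 9.95 to 10.37 in Myd88 cKO, 9.56 to 9.85 in double KO, 9.53 to 10.04 in WT and 9.29 to 9.59 in TNFR1-/- hosts. Among other markers, 6 of 8 cell cycle genes rose, 4 of 7 T cell markers (Cd3g, 1.46 ± 0.16), 1 of 5 endothelial markers (Cdh5, 1.02 ± 0.13) and 2 of 6 fibroblast markers (Dcn, 1.36 ± 0.22). Their part in the lipid gene differences was not tested.

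**Figure D4:**
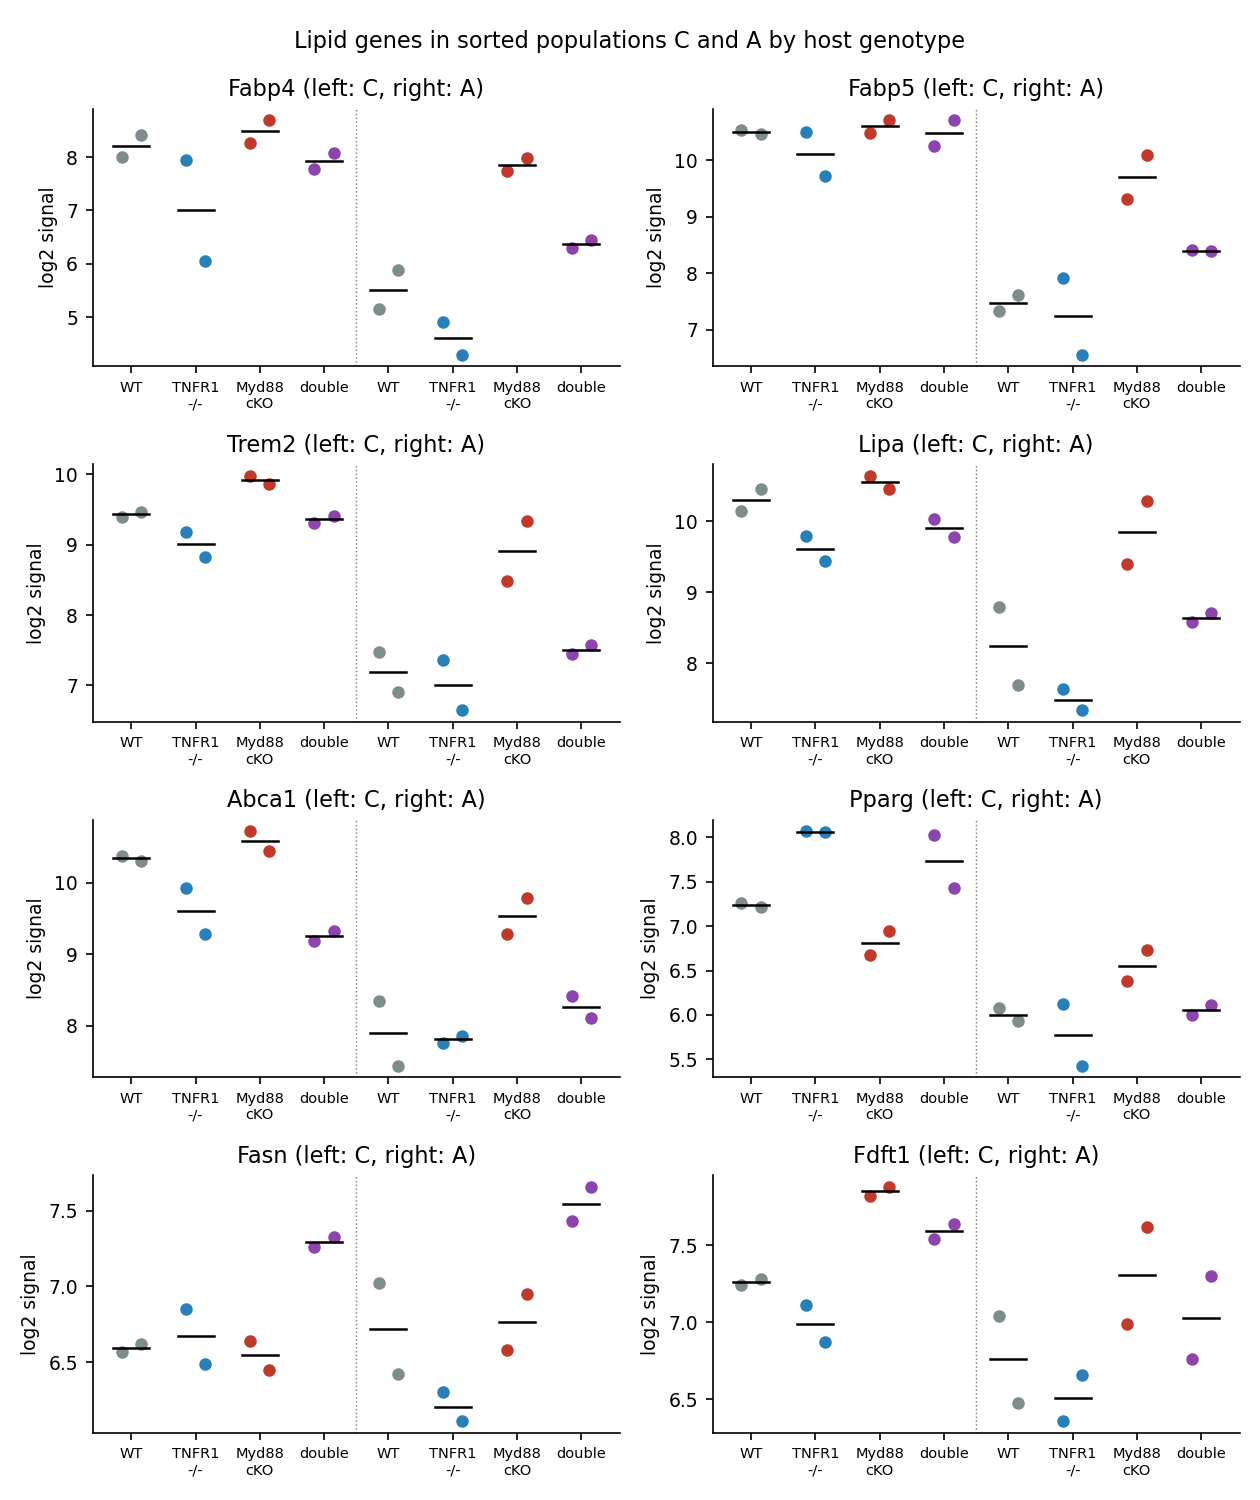
Log2 signal of 8 lipid genes (y axes, each panel on its own scale) in the 2 arrays of each host genotype (x axis), with population C left and population A right of the dotted line; points are arrays and bars are means. In A, Fabp4, Fabp5, Trem2, Lipa and Abca1 are highest in Myd88 cKO hosts, Fasn is highest in double KO hosts, and in C Pparg is highest in TNFR1-/- arrays.

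In population C, Myd88 loss called 0 of 32 members by limma, against 0.0182% of all genes (0.00605% higher and 0.0121% lower). At an unadjusted p under 0.05 there were 9 members, 7 higher and 2 lower, against 4.67% of all genes. Of these, 6 were in sterol synthesis, and all 9 measured genes of that role had a positive difference, from 0.05 to 0.6. Fdft1 read 7.24 and 7.28 in WT, 7.11 and 6.87 in TNFR1-/-, 7.82 and 7.88 in Myd88 cKO and 7.54 and 7.64 in double KO hosts, without overlap (0.59 ± 0.17, n = 4 each, limma adjusted p = 0.617). Dhcr7 read 5.92 and 6.09, 5.84 and 5.63, 6.24 and 6.46, and 6.17 and 6.27, also without overlap (0.41 ± 0.12, limma adjusted p = 0.645). Hmgcs1 (0.53 ± 0.16), Fdps (0.6 ± 0.20) and Sqle (0.36 ± 0.14) did not overlap either, so that 5 members had all 4 deleted arrays above the other 4, against 2.07% of all genes. In a fit of the 8 population C arrays alone 2 members were called, both higher.

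In the other roles in C no member was called with Myd88 loss. Fabp4 had a difference as large as any in sterol synthesis, at 8 and 8.42 in WT, 7.95 and 6.05 in TNFR1-/-, 8.27 and 8.69 in Myd88 cKO and 7.78 and 8.08 in double KO hosts, with overlap (0.6 ± 0.31, limma adjusted p = 0.998). Mylip read 7.79 and 7.54 in WT, 7.61 and 7.52 in TNFR1-/-, 7.39 and 7.07 in Myd88 cKO and 7.24 and 7.14 in double KO hosts (-0.41 ± 0.16), and Abcg1 9.14 and 8.92, 9.42 and 9.27, 8.71 and 8.49, and 9.29 and 9.01 (-0.31 ± 0.18). Neither was called. Mylip was lower in all 4 deleted arrays than in the other 4, as were 1.41% of all genes. Trem2 read 9.4 and 9.46, 9.18 and 8.83, 9.98 and 9.86, and 9.31 and 9.41 (0.42 ± 0.19), and Lipa 10.15 and 10.45, 9.79 and 9.44, 10.64 and 10.45, and 10.03 and 9.77 (0.26 ± 0.22), both with overlap. Cell cycle genes, 8 of 8 positive with a median of 0.21, moved the same way with 0 called, and their part was not tested.

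Loss of TNFR1 changed Abca1 and Pparg in population C, in opposite directions. The comparison sets TNFR1-/- and double KO against WT and Myd88 cKO arrays. Of 32 members 1 rose and 1 fell, against a background of 0.472% and 0.617% of all genes. Abca1 read 10.37 and 10.31 in WT, 10.72 and 10.44 in Myd88 cKO, 9.92 and 9.28 in TNFR1-/- and 9.19 and 9.33 in double KO hosts, lower in every TNFR1-deficient array (-1.03 ± 0.19, n = 4 each, limma adjusted p = 0.0184). Pparg read 7.26 and 7.22, 6.67 and 6.95, 8.07 and 8.06, and 8.03 and 7.43 in that order, higher in every one (0.87 ± 0.16, limma adjusted p = 0.0173). Each call was lost in 6 of 8 fits that left out 1 array, with adjusted p up to 0.122 and 0.114, the arrays of WT, TNFR1-/- array 2, Myd88 cKO array 1 and double KO array 1 ending both. In a fit of the 8 population C arrays alone 5 members were called, 1 higher and 4 lower.

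Other members leaned lower with TNFR1 loss in C. Groups not overlapping and lower were found for 7 members (Insig1, Abca1, Apoe, Apoc2, Msr1, Lipa and Npc1), against 3.37% of all genes, and for 1 higher (Pparg), against 3.01%. Lipa, whose arrays in C are given above, was at -0.66 ± 0.22 (limma adjusted p = 0.324) and Trem2 at -0.49 ± 0.19 (limma adjusted p = 0.5), while Dhcr7 and Fdft1 were at -0.2 ± 0.12 and -0.27 ± 0.17. Fabp4 was at -0.88 ± 0.31, a value to which 1 array gave most: it read 7.95 and 6.05 in TNFR1-/- hosts and 7.78 and 8.08 in double KO hosts. Of the other LXR pathway genes Smpdl3a fell by 0.69 with a standard error of 0.15, 1 of 8 tested. The dendritic cell gene Ccr7 rose by 1.88 ± 0.20, from 8.01 to 8.44 in arrays with TNFR1 to 9.75 to 10.43 in those without, and all 5 dendritic cell markers had a positive difference. Of 8 macrophage markers 7 had a negative difference (median -0.41, 0 called). Their part in these differences was not tested.

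In population A, TNFR1 loss called 0 of 32 members by limma, against 0.182% of all genes (0.0424% higher and 0.139% lower). At an unadjusted p under 0.05 there were 15 members, 14 lower and 1 higher, against 13.8% of all genes. The median was -0.31 over the members and -0.01 over all genes, and all 5 uptake and lysosome genes were negative. From the array values given above, Lipa was at -0.98 ± 0.22 (limma adjusted p = 0.0938), Trem2 at -0.79 ± 0.19 (limma adjusted p = 0.106), Fabp4 at -1.2 ± 0.31 (limma adjusted p = 0.123), Fabp5 at -0.77 ± 0.26 and Abca1 at -0.68 ± 0.19. Their groups overlapped, and Nr1h3 was the one member that did not overlap, lower without TNFR1 (-0.44 ± 0.15), against 1.57% of all genes lower and 0.95% higher.

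Apoc2 in A read 8.2 and 7.65 in WT, 7.24 and 7.44 in Myd88 cKO, 6.95 and 6.89 in TNFR1-/- and 6.66 and 7.33 in double KO hosts (-0.67 ± 0.16, n = 4 each, limma adjusted p = 0.0957). Fdps read 7.61 and 6.62, 6.48 and 7.25, 6.35 and 6.06, and 6.67 and 7.06 (-0.46 ± 0.20) and Insig1 9.16 and 8.29, 7.92 and 8.65, 8.33 and 7.7, and 7.85 and 8.65 (-0.37 ± 0.22), with wide spread within genotypes. Calls depended on single arrays: 8 members were lower without WT array 2, 3 without TNFR1-/- array 1 and 2 without double KO array 2, and 0 without any of the other 5. Macrophage markers had 6 of 8 negative differences with 0 called, and TNFR1-/- array 2 had the lowest Cd68 (9.57), H2-Aa (8.77), Fabp4, Fabp5, Trem2 and Lipa of all A arrays. Gpnmb fell by 1.54 with a standard error of 0.27, the one called gene of the 4 lists of other pathway genes, and the endothelial Cdh5 by 1.55 with a standard error of 0.13. Their part was not tested.

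The effect of TNFR1 loss on Pparg differed between A and C by -1.24 ± 0.23, the nearest of any member to passing (limma adjusted p = 0.0781). In this test of the difference 0 of 32 members were called, against 0.103% of all genes, and 3 had an unadjusted p under 0.05, against 6.5% of all genes: Pparg, Lpl (-1.21 ± 0.39) and Plin2 (-0.55 ± 0.22). All 3 lay lower with TNFR1 loss in A than in C.

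Hosts lacking both TNFR1 and Myd88 were set against WT, which shares its arrays with the comparisons above. In A, 1 of 32 members rose and 1 fell, against 4.33% and 1.42% of all genes. Apoc2 was at -0.93 ± 0.22 (n = 2 each, limma adjusted p = 0.0327) and Fasn at 0.82 ± 0.20 (limma adjusted p = 0.0354). Neither was called in a fit of these 4 arrays alone. Without WT array 1 there were 7 calls, all higher, 1 without WT array 2 or double KO array 2, and 0 without double KO array 1. Of the other pathway genes Acsl4 rose by 1.36 ± 0.29 and Sc5d by 0.78 ± 0.18, and the lipoprotein receptor Vldlr fell by 0.59 with a standard error of 0.16. Of 7 T cell markers 5 rose (Cd3g, 1.75 ± 0.23), and their part was not tested. Fabp5 and Fabp4, which rose in Myd88 cKO, were at 0.93 ± 0.37 (Fabp5, limma adjusted p = 0.138) and 0.86 ± 0.44 (Fabp4), and Fabp3 was at -0.24 ± 0.21. Dhcr7 was at 0.33 ± 0.17, Insig1 at -0.47 ± 0.32, Lipa at 0.4 ± 0.32, and Msr1, which read 9.8 and 9.57 in WT hosts against 8.83 and 9.68 in double KO hosts, at -0.43 ± 0.29.

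In C, 0 of 32 members were called by limma in the double KO against WT, against 0.309% of all genes, and 5 had an unadjusted p under 0.05, against 6.17%. Ccr7 was at 1.9 ± 0.28 here too. Abca1 was at -1.08 ± 0.27 (n = 2 each, limma adjusted p = 0.176), close to its TNFR1 difference, and Fasn, at 6.57 and 6.62 in WT hosts against 7.26 and 7.33 in double KO hosts, at 0.7 ± 0.20 (limma adjusted p = 0.308). Apoc2 read 7.78 and 7.72 against 7.28 and 6.95 (-0.63 ± 0.22), Cyp51 5.66 and 5.67 against 6.08 and 6.2 (0.47 ± 0.19) and Hmgcs1 6.7 and 6.71 against 7.21 and 7.05 (0.42 ± 0.22). Pparg was at 0.49 ± 0.23, Lipa at -0.4 ± 0.32, and Npc2, at 10.33 and 10.35 against 10.08 and 10.09, at -0.25 ± 0.18.

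Whether the double KO effect equals the sum of the single effects was tested as a departure from that sum. In A, 0 of 32 members passed in limma, against 0.0726% of all genes, and 4 had an unadjusted p under 0.05, against 10.4% of all genes, a share near the background. Fasn was above the sum by 1.29 ± 0.29 (limma adjusted p = 0.135) and Fdps by 0.91 ± 0.40. Trem2 and Abca1 were below it, at -1.21 ± 0.39 and -1.2 ± 0.39 (limma adjusted p = 0.31 and 0.315). In C, 0 of 32 members passed in limma, as did 0 of all genes, and 1 member had an unadjusted p under 0.05, against 2.62% of all genes.

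**Figure D5:**
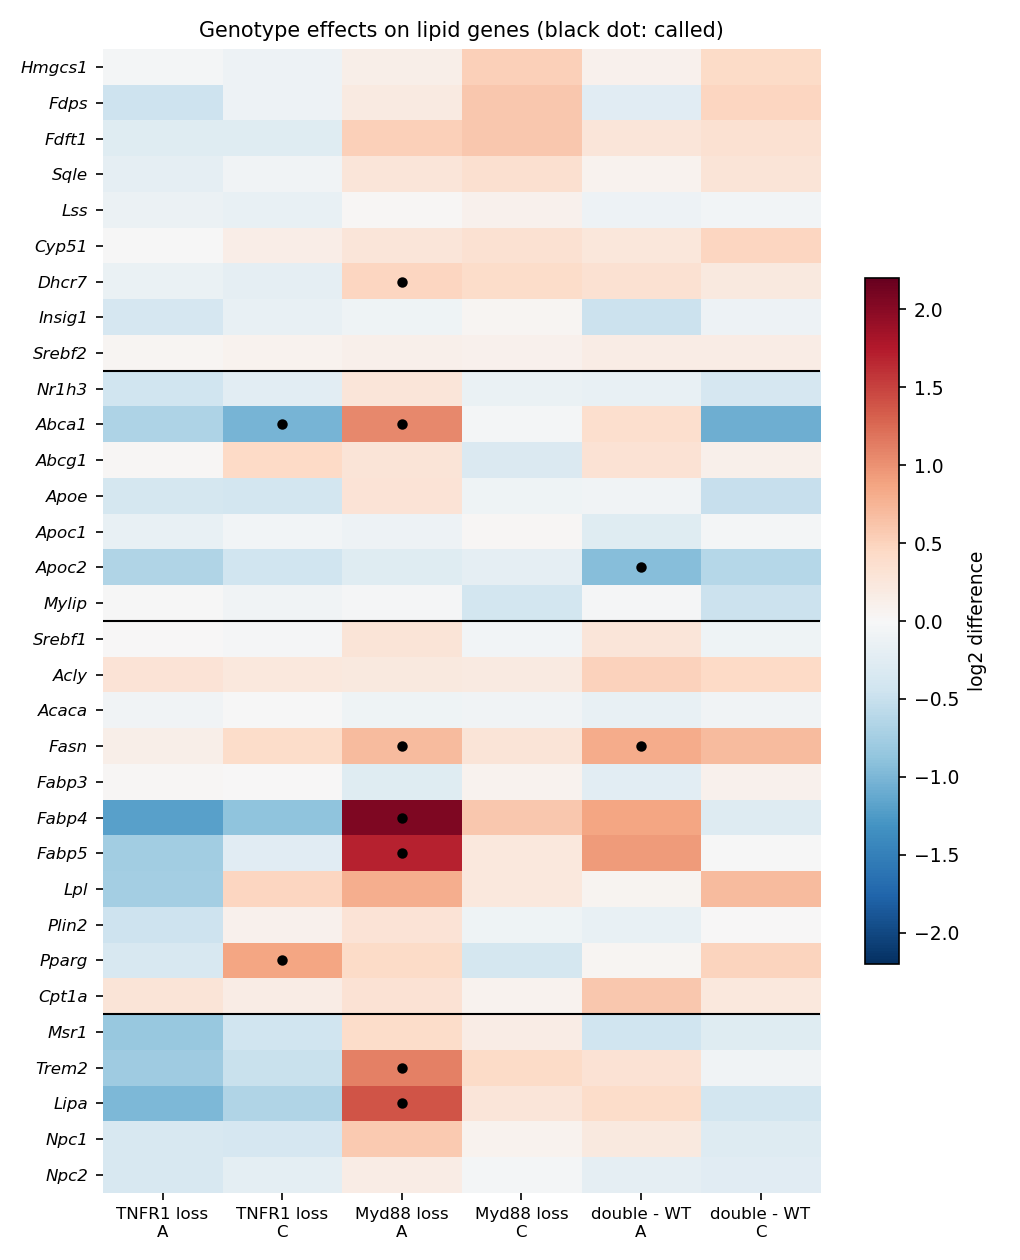
Log2 differences for the 32 members tested in sorted cells (rows, in order of role with black lines between roles) in 6 genotype comparisons (columns); red is higher and blue is lower with the loss, and a black dot marks a called member. The 7 dots of Myd88 loss in A are all in red cells, led by Fabp4 at 2.06, and TNFR1 loss in C has a dot for Abca1 (-1.03) and one for Pparg (0.87).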

How the data were processed

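Per the submitters' processing notes, the authors used RMA and Affymetrix Expression Console 1.1, and what they deposited is a log2 signal for each probe set. RMA puts arrays on one distribution, so a global shift in RNA content would be removed, and no source used here says which arrays shared a normalization. RNA was extracted with Trizol, per the labels' protocols. Arrays have no depth, and their number limits the precision.

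Each gene was represented by its single-symbol probe set of highest mean. Genes were tested if they exceeded the array's 40th percentile in a number of arrays no smaller than the smallest group (12577 in the tumour models, 11915 in the host experiment, 16524 in sorted cells) by a two-sided moderated test (limma 3.58.1, R 4.3.3), and p-values were adjusted by Benjamini-Hochberg across every gene tested. The tumour model and host fits each held 2 groups. One fit of 8 groups, with 8 residual degrees of freedom, served the 16 sorted arrays. The TNFR1 and Myd88 effects average over the other genotype.

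Values in every array (in A against C, with 8 arrays a group, the range and median) are given for members called in a main comparison and, where no member of a role was called, for the pair of smallest p. From each list of other pathway genes up to 4 called genes of smallest adjusted p are named. Genes named beyond this were chosen after their values were seen. The members and all lists were chosen with earlier results of these data known. Markers were lists for macrophages, the sort gates, neutrophils, T, B and dendritic cells, sympathetic neurons, adipocytes, adrenal cortex, kidney tubule, endothelium, fibroblasts and the cell cycle. Alternatives were the mean of all probe sets, no filter, a filter at the 60th percentile, an intensity trend with a robust prior, quantile normalization again, other arrays in the fit, the replicate number as a block, and leaving out each array.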

Additional observations from a re-analysis of the deposited data

Results flagged for a closer look

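In groups of 4 to 10 arrays, a value far from the rest was looked for in 64 combinations of member and group, and 2 were found, where chance gives about 5%. Dhcr7 read 6.62 in array 2 of the Myd88-/- hosts, against 6.91 to 7 in the other 4. Scd1 read 3.3 in array 4 of the WT hosts, against 4.26 to 4.52 in the other 4. Neither gene was called in the host experiment.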

How the results depend on the processing

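With other settings the number of members called in the tumour models was 8 with an intensity trend and robust prior and 11 with all 16 arrays of the chip in the fit, against 5. In TNFR1 loss it was 2 after quantile normalization again in A, against 0, and 5 from the C arrays alone, against 2. In Myd88 loss it was 1 from the A arrays alone, against 7, and 2 from the C arrays alone, against 0. In double KO against WT it was 1 after quantile normalization again and 0 from the arrays compared alone in A, against 2, and 1 from the arrays compared alone in C, against 0. Leaving out 1 array gave 3 to 6 calls for the tumour models, 0 to 0 for the hosts, 18 to 22 in A against C, 0 to 8 and 0 to 2 in TNFR1 loss in A and C, 4 to 13 and 0 to 0 in Myd88 loss in A and C, and 0 to 7 and 0 to 0 in double KO against WT in A and C. The cause was not tested.

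Over all genes the calls also depended on the arrays fitted: 4334 with all 16 arrays against 1850 in the tumour models, 44 against 172 in the hosts, 37 against 772 in Myd88 loss in A, 31 against 3 in Myd88 loss in C, 466 against 180 in TNFR1 loss in C, 0 against 30 in TNFR1 loss in A, and 0 against 950 and 135 against 51 in double KO against WT in A and C. Quantile normalization again gave 86 in TNFR1 loss in A, and the replicate block 12. Leaving out 1 array gave 625 to 2164 for the tumour models, 86 to 275 for the hosts, 3 to 700 and 153 to 2359 in TNFR1 and Myd88 loss in A, 72 to 111 and 0 to 18 in C, and 2 to 2341 and 7 to 41 in double KO in A and C. With the replicate block in the fit 4, 0 and 20 members were called in the tumour models, the hosts and A against C, and 0, 2, 7, 0, 2 and 0 in TNFR1 loss in A and C, Myd88 loss in A and C and double KO in A and C. The replicate numbers were not taken to pair arrays: as deviations from the group means, arrays of one number had correlations from -0.04 to 0.21 (neuroblastoma with EG7), from -0.21 to 0.2 (WT with Myd88-/- hosts) and from -0.13 to 0.23 between the WT arrays of C and the other 7 sorted groups. The sample titles do not say whether A and C arrays of a genotype came from the same tumours. A was compared with C of its own genotype in WT hosts only (0.2), so the check cannot decide whether A and C are paired. Over 36 pairs of called member and comparison, 682 values were recomputed, of which 622 kept the call, 60 lost it and 0 changed direction. Signal near background limits Hmgcs1 and Apoc1 on the first chip, and Lss in its host experiment. On the second chip it limits Apoc1 and Scd1, and Fabp4 in some A arrays of WT and TNFR1-/- hosts.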
